A study of Homo sapiens with 8 samples.

Results

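The genes described here make cholesterol and fatty acids, or regulate the genes that do. They form a list of 30 human genes, set by name with earlier results of these data known. Each was represented by the probe set (the group of probes on the array designed for 1 transcript) that carries its symbol alone, and by the brightest of these over the 8 arrays where there were several. By that rule 26 of the 30 had a value, of 11963 genes with a value in all. FDFT1, ACSL3, CYP51A1 and FADS1 were not analysed here, the last 2 because each of their probe sets is shared with another symbol. Of the 26 genes, 16 encode sterol pathway enzymes, 3 encode regulators and 7 encode enzymes of fatty acid synthesis and modification.

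The study asked how cancer cells respond when CD24, a small glycosylated surface protein, is bound by an antibody or lowered by a short hairpin RNA (shRNA). RNA from 8 cell samples was hybridised to 8 Affymetrix human arrays. HT29, an established colorectal cancer line, and Colo357, an established pancreatic cancer line, had 1 untreated array each and 1 array after 72 h with the anti-CD24 monoclonal antibody SWA11 at a dilution of 1 to 40. The other 4 arrays came from clones derived from HT29. They were 1 clone with a vector for an shRNA against GFP, 1 clone with a vector for an shRNA against CD24, and 2 clones with 2 such CD24 vectors, called 2-vector clone 1 and 2-vector clone 2 below. All clones carry an shRNA vector, and none received the antibody. Each clone group except the 2-vector group is a single clone, and an array of cells given a control antibody was not analysed here. The labels do not say that arrays came from separate cultures, so p-values measure only the spread between these samples.

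Cells build cholesterol from acetyl-CoA through mevalonate, isoprenoid pyrophosphates, squalene and lanosterol, and they build fatty acids from the same acetyl-CoA through malonyl-CoA. Most of the genes of both routes are driven by the sterol regulatory element-binding proteins. SREBF2 encodes the form best known for the sterol genes, and SREBF1 encodes the forms best known for the fatty acid genes. INSIG1 encodes a protein of the endoplasmic reticulum that holds the SREBP precursors there when sterols are plentiful, and INSIG1 is itself an SREBP target gene. Fast-growing tumour cells use the products for membranes, and fatty acid synthase is abundant in many carcinomas.

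CD24 was read first as a check of the labels. Its brightest probe set read 6425.1 in HT29 and 7362.5 in the GFP shRNA clone. It read 558 in the 1-vector clone, 171.7 in 2-vector clone 1 and 595.5 in 2-vector clone 2, all 3 below both controls. After antibody CD24 read 4089.7 in HT29, and in Colo357 it read 2038.7 untreated and 1848.9 after antibody. The mean after trimming was 250.1 on every array, but the median intensity ranged from 32.4 to 63.1. Of the CD24 shRNA clones, the 1-vector clone had a median of 36.9, 2-vector clone 1 of 32.4 and 2-vector clone 2 of 47.5. Their controls had medians of 44 (HT29) and 63.1 (GFP shRNA clone). Whether these medians bear on the clone differences was not tested, but some of those differences are also given with quantile normalization. The array of 2-vector clone 1 stood apart in quality: its 18S ribosomal probe set read 434.8 against 14.7 to 48 on the other 7 arrays, and its ratio of 3′ to 5′ signal for beta-actin was 1.77 against 1.06 to 1.17. The clone differences given with an SE for genes of the list of 30 are therefore also given without it. The line labels were checked against marker genes. The colon keratin KRT20 read 1117.1 in HT29 and 6.7 in Colo357, and the ductal keratin KRT7 read 38.8 in HT29 and 5468.1 in Colo357. Other markers of the lists did not all follow the labels. LGALS4 read 4581.5 in HT29 and 139.6 in Colo357, but the colon markers VIL1 (439.3 and 1123.5), CDH17 (6.6 and 68.8) and CDX1 (6.5 and 27) were lower in HT29. The ductal marker S100P was higher in HT29 (5116.5 and 3690.1). CDX1, CDH17 and GPA33 read at most 68.8 on every array, HT29 included. Leukocyte, fibroblast and adipocyte marker lists summed to at most 315 on any array, and their part in the results was not tested.

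Promoter sequences are shown first because both routes share their regulators. RefSeq promoters of the GRCh38.p14 assembly, each with 250 bases before the start of the gene and 50 after it, were found for 26 of the 30 genes, with 35 promoters in all. These are not the same 26 as the genes with a value. ACAT2, FDFT1, SQLE and FASN had no promoter to search, while CYP51A1, FADS1 and ACSL3 had one. The promoters were searched on both strands for 4 motifs. TCACNCCAC, a sterol regulatory element of the kind SREBPs bind, was present in 1 of the 35 (2.86%) and in 1.13% of all 35116 promoters. CACGTG, the E-box, was present in 4 of the 35 (11.4%) and in 7.26% of all. CCAAT, the box bound by NF-Y, was present in 24 of the 35 (68.6%) and in 34.6% of all. GGGCGG, the GC box of SP1-type factors, was present in 31 of the 35 (88.6%) and in 45.0% of all. Counted by gene, CCAAT was found for 20 of 26 genes (76.9%) against 39.7% of all 27305 genes, and GGGCGG for 25 of 26 (96.2%) against 48.3%. Among sterol enzymes 13 of 15 held a CCAAT match and among fatty acid enzymes 5 of 8 did. A match is a description of letters and not a bound site.

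5 windows are printed, each 5′ to 3′ on the strand of its gene, with motif matches in capitals. SREBF2 is shown because it alone of the 26 genes with a promoter held a TCACNCCAC match. The match runs from base -133 to -125 before the start. Other forms of the sterol regulatory element were not searched. EBP and NSDHL are shown as sterol enzymes that were higher after antibody in both lines, SREBF1 as the gene called lower, and INSIG1 as a regulator that differed between lines. These 4 were chosen after their values were seen. SREBF2 lies at chr22:41832955-41833034 on the plus strand, EBP at chrX:48521698-48521787 on the plus strand, NSDHL at chrX:152830913-152830992 on the plus strand, SREBF1 at chr17:17837007-17837091 on the minus strand and INSIG1 at chr7:155297738-155297837 on the plus strand.
SREBF2: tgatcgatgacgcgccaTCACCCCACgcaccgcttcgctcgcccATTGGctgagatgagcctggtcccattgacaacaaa
EBP: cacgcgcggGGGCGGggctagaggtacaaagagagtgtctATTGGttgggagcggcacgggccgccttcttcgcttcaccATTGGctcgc
NSDHL: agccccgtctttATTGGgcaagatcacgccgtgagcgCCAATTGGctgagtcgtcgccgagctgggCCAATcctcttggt
SREBF1: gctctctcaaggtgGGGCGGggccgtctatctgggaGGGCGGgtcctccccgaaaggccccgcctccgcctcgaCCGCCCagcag
INSIG1: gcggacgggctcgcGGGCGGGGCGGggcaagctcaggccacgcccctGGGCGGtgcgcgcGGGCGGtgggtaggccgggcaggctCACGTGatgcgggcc
ATTGG is CCAAT, and CCGCCC is GGGCGG, read on the other strand. In SREBF2 the sterol regulatory element lies upstream of a CCAAT match, and EBP holds 2 CCAAT matches and 1 GC box. NSDHL holds 4 CCAAT matches, of which 2 overlap within CCAATTGG. The SREBF1 window holds 3 GC boxes and its promoter no CCAAT match. The INSIG1 window holds 4 GC boxes, of which 2 overlap, and an E-box. Outside the printed windows, a CCAAT match was found for INSIG1 and a GC box for SREBF2.

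**Figure D1:**
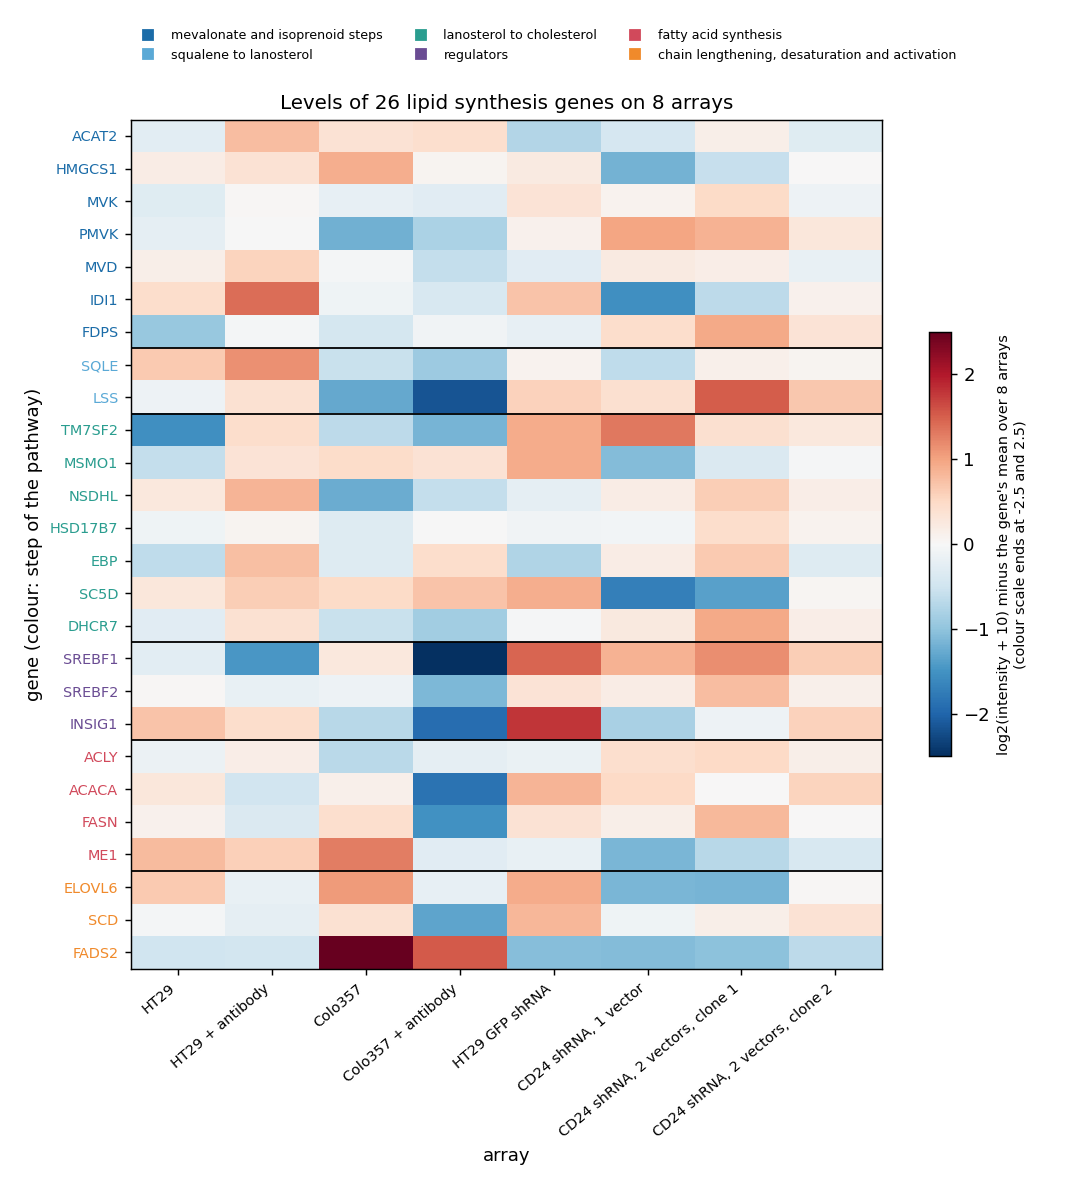
Level of each of the 26 genes (rows, coloured by step of the pathway) on the 8 arrays (columns), as log2(intensity + 10) minus the gene's own mean over the 8 arrays. SREBF1 is lowest in antibody-treated Colo357 (intensity 53.1), FADS2 is high in the 2 Colo357 arrays alone (286 and 79.9), and INSIG1 is highest in the GFP shRNA clone (1330.6).

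The antibody was first compared with untreated cells within each line, where 1 array stands against 1 array and no test or error can be given. In HT29 all 16 sterol enzymes read higher after antibody, while 5 of 6 measured fatty acid enzymes read lower. All 3 regulators read lower there too, INSIG1 only by its brightest probe set. In Colo357 the sterol enzymes were divided, with 7 of 16 higher, and 6 of 7 fatty acid enzymes were lower, each of the 6 by 2-fold or more. All differences are on the log2(intensity + 10) scale, which understates those of dim genes. In bulk RNA, fewer cells of a kind and less RNA per cell cannot be told apart.

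In HT29 the 16 sterol enzymes had a median log2 difference of 0.54 (range 0.17 to 1.98), against -0.05 over all 6685 genes compared, of which 46.7% were higher. 3 of the 25 listed genes compared were higher by 2-fold or more, where 5.04% of all genes were, and 1 was lower to that degree, where 7.43% were. TM7SF2, a sterol reductase, read 174.6 in untreated HT29 and 715.9 after antibody, a log2 difference of 1.98. EBP, the sterol isomerase, read 837.2 and 2221.5 (1.40), and ACAT2, the thiolase that joins 2 acetyl-CoA molecules, read 844 and 1735.2 (1.03). These 3 genes stand at the entry to the pathway and in its last part. The next largest were IDI1, the isopentenyl isomerase (822.2 and 1602.6, log2 difference 0.95), MSMO1, a sterol oxidase (349.8 and 675, 0.93), and FDPS, the farnesyl pyrophosphate synthase (1343.9 and 2516.8, 0.90). The smallest were HMGCS1, the HMG-CoA synthase, at 0.17 and HSD17B7, a sterol ketone reductase, at 0.18. Epithelial markers were also higher on the treated HT29 array. The colon list summed to 6177.4 untreated and 11117.3 after antibody, and the duct list to 9021 and 16412.8. KRT20 read 1117.1 and 4015.5 and VIL1 439.3 and 1408.3. Their part in the result was not tested. The count of 16 sterol enzymes higher was the same with 32 added in place of 10, with quantile normalization and with the mean of each gene's probe sets, and it was 14 of 14 without probe sets open to cross-hybridisation.

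EBP's probe sets disagreed. A second, less bright one read 386.5 untreated and 1313.2 after antibody in HT29 (log2 difference 1.74) and 444.6 and 783.1 in Colo357 (0.80). The third read 448.4 and 300.0 in HT29 (-0.56) and 217.6 and 150.1 in Colo357 (-0.51). With the mean of the 3, EBP's difference was 0.86 in HT29 and 0.35 in Colo357. NSDHL's probe sets ran the same way, and the less bright one gave 1.13 in HT29 and 0.94 in Colo357. TM7SF2 and ACAT2 have 1 probe set each, so no second reading exists for them. SC5D's dim second probe set was lower in both lines, at -0.19 in HT29 and -0.81 in Colo357. Averaged, SC5D was at 0.08 and -0.28. The less bright probe sets of LSS were lower in HT29, at -0.10 and -0.16, and its mean there was 0.08.

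In Colo357 the sterol enzymes had a median log2 difference of -0.09 (range -0.87 to 0.76), against -0.04 over all 6836 genes, and none reached 2-fold in either direction. EBP read 1049.8 untreated and 1790.8 after antibody (0.76). NSDHL, a sterol dehydrogenase, read 226.1 and 362.5 (0.66). PMVK, the phosphomevalonate kinase, read 317.4 and 424.1 (0.41). At the other end, LSS, the lanosterol synthase, read 255.8 and 135 (-0.87), HMGCS1 read 247.9 and 135.2 (-0.83), and MVD, the mevalonate pyrophosphate decarboxylase, read 89.9 and 58.1 (-0.55). EBP, NSDHL and PMVK were thus the highest and LSS and HMGCS1 the lowest. TM7SF2, the largest difference in HT29, read 330.1 and 227.3 in Colo357 (-0.52).

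By the probe sets used, the regulators were lower in both lines. SREBF1 read 320.2 in untreated HT29 and 134.9 after antibody (log2 difference -1.19). In Colo357 it read 463.9 and 53.1 (-2.91), the largest antibody difference of any of the 26 genes. SREBF1 was the only one of the 26 at 2-fold or more in the same direction in both lines, where 3.98% of all 6784 genes were lower and 1.68% higher to that degree. SREBF2 read 332.4 and 282.3 in HT29 (-0.23) and 294.1 and 142.9 in Colo357 (-0.99). INSIG1 read 626.3 and 515.1 in HT29 (-0.28) and 231.2 and 94.1 in Colo357 (-1.21). INSIG1's direction rests on the probe set used. One of its 2 less bright probe sets read higher after antibody in both lines, at 0.87 and 0.55. The other gave 0.30 in HT29 and -0.70 in Colo357. With the mean of its probe sets, INSIG1 was higher in HT29 (0.30) and lower in Colo357 (-0.45).

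Fatty acid enzymes were lower with 1 exception. In HT29 the median over 6 was -0.33 and none reached 2-fold. In Colo357 the median over 7 was -1.70, and 6 were at 2-fold or more. Over the whole list, 8 of 26 genes were lower by 2-fold or more in Colo357 and 0 higher, where 12.8% and 10.6% of all genes were. The exception in both lines was ACLY, which splits citrate to give cytosolic acetyl-CoA: it read 2208.6 and 2751.6 in HT29 (0.32) and 1522.2 and 2103.5 in Colo357 (0.46).

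ACACA, the acetyl-CoA carboxylase of the committed step, read 1128.5 and 660.1 in HT29 (-0.76) and 1005.5 and 249.2 in Colo357 (-1.97). FASN, fatty acid synthase, read 1233.7 and 882.6 in HT29 (-0.48) and 1528.5 and 394.8 in Colo357 (-1.93). ME1, the malic enzyme that supplies NADPH, read 1078.3 and 944.1 in HT29 (-0.19) and 1520.8 and 509.3 in Colo357 (-1.56). For each of these 3 probe sets the Colo357 difference was the larger. ME1's 3 probe sets disagreed, with differences of 0.31, -0.19 and -1.39 in HT29 and -0.81, -1.56 and 1.18 in Colo357. Averaged, ME1 stood at -0.43 in HT29 and -0.40 in Colo357, and no larger difference in Colo357 was left for it. SCD, which makes monounsaturated fatty acids, read 3267.5 and 2909.6 in HT29 (-0.17) and 4390.1 and 1345.5 in Colo357 (-1.70). ELOVL6, which lengthens saturated chains, read 175.7 and 93.5 in HT29 (-0.84) and 238.1 and 92.7 in Colo357 (-1.27). FADS2, the delta-6 desaturase of polyunsaturated fatty acids, read 286 and 79.9 in Colo357 (-1.72). In HT29 FADS2 read 12.1 and 12.8, near the 25th percentile of all probe sets at 10.1, and it did not pass the filter there. With the mean of each gene's probe sets, 3 of the 7 enzymes (FASN, SCD and FADS2) and, with SREBF1, 4 of the 25 genes then compared remained lower by 2-fold or more in Colo357. ACACA's second probe set was higher there (136.9 and 166.8, 0.27), and the 3 less bright SCD probe sets gave differences of -0.82 to -1.19.

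**Figure D2:**
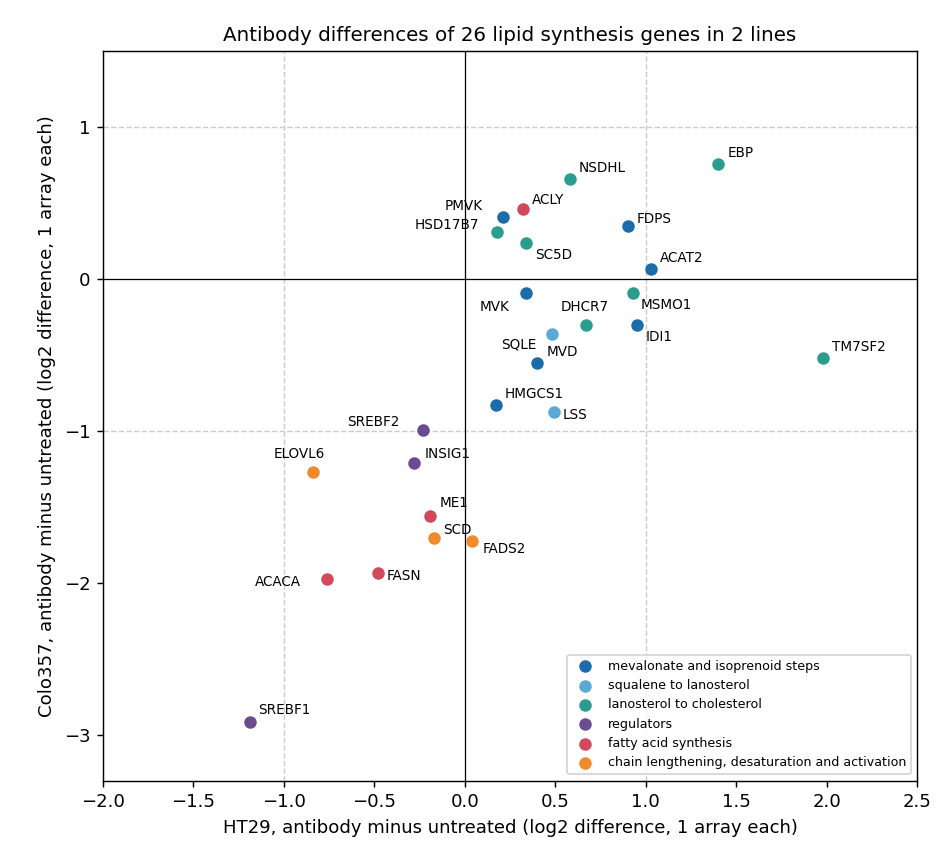
Antibody difference of each of the 26 genes in HT29 (horizontal) against that in Colo357 (vertical), both as log2 differences of 1 array minus 1 array; dashed lines mark 2-fold. All sterol enzymes lie right of 0, and SREBF1 (-1.19 and -2.91) and the fatty acid enzymes other than ACLY and FADS2 lie at the lower left. FADS2 lies at 0.04 and -1.72.

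The 2 lines share no array. Across the 26 genes the antibody difference in HT29 correlated with that in Colo357 at Pearson's r = 0.72 and Spearman's rho = 0.70, against 0.51 for both measures over all 6784 genes. Genes are not independent replicates, and each value shares its array with all others. The order of the genes was thus similar in the 2 lines, with the whole list shifted: the HT29 difference was the higher of the 2 for 22 of 26 genes (84.6%; 49.0% of all genes), by a median of 0.95 (all genes -0.02). In 10 of the 26 genes the difference was above 0 in HT29 and below 0 in Colo357, where 15.3% of all genes were. In 0 it was the reverse, where 16.5% were. 8 genes were higher in both lines (ACAT2, PMVK, FDPS, NSDHL, HSD17B7, EBP, SC5D and ACLY), where 32.1% of all genes were. 8 were lower in both (all 3 regulators, ACACA, FASN, ME1, ELOVL6 and SCD), where 36.0% were. With the mean of each gene's probe sets, SC5D (0.08 in HT29 and -0.28 in Colo357) and INSIG1 (0.30 and -0.45) no longer had 1 direction in both lines. Whether the lines differed was not tested, because a fit with a separate antibody effect in each line leaves no residual degree of freedom.

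The test of the antibody used both lines at once, with the line as a block. By limma with Benjamini-Hochberg adjustment, SREBF1 fell (log2 difference -2.05, SE 0.42, adjusted p = 0.0342) and no other listed gene passed: 1 of 26 lower and 0 higher, where 2.42% and 1.14% of all 6784 genes were called. The count of called genes is therefore close to that of genes at large. Next in line were ACACA (-1.37, SE 0.37, adjusted p = 0.0684), ELOVL6 (-1.06, SE 0.33, 0.0961), FASN (-1.20, SE 0.39, 0.109) and, upward, EBP (1.08, SE 0.34, 0.0967). The sterol enzymes had a median of 0.30 with 13 of 16 above 0, and the fatty acid enzymes a median of -0.93 with 6 of 7 below 0. Over all genes the median was -0.02. 7 of the 26 genes had an unadjusted p under 0.05, and so did 1568 of all 6784 genes (23.1%). The fit leaves 1 residual degree of freedom. The call of SREBF1 was lost with quantile normalization (adjusted p = 0.125), with no filter on dim genes (0.183) and with the filter on linear means (0.0714). It was also lost with each gene's probe sets averaged (0.0572) and with all 8 arrays in the fit (0.244). SREBF1 has 1 probe set, so averaging left its difference at -2.05 and only its adjusted p moved. Over all alternatives the adjusted p of SREBF1 ran from 0.018 to 0.244 with a difference of -1.81 to -2.42.

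Next, the 2 lines were compared by the line term of the same limma fit. 5 of 26 genes passed the test, 1 higher in Colo357 and 4 lower, where 10.9% of all 6784 genes were called higher and 8.56% lower. The 4 lower genes were the squalene epoxidase SQLE, LSS, NSDHL and INSIG1, of which 3 are sterol enzymes and 1 is a regulator. Over the 16 sterol enzymes 10 were lower and the median was -0.26, and over all genes it was -0.03.

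INSIG1 read 626.3 and 515.1 in the 2 HT29 arrays and 231.2 and 94.1 in the Colo357 arrays (log2 difference -1.87, SE 0.35, adjusted p = 0.00417). LSS read 584.8 and 827.4 against 255.8 and 135 (-1.85, SE 0.39, adjusted p = 0.00752). SQLE read 3192.8 and 4468.8 against 1380.6 and 1077.1 (-1.62, SE 0.35, adjusted p = 0.00841). For each of these genes both Colo357 arrays lay below both HT29 arrays. NSDHL read 662.7 and 998.5 against 226.1 and 362.5 (-1.47, SE 0.32, adjusted p = 0.00938). The shRNA clones, which are HT29 cells too, give a further reading of the HT29 level. LSS ranged from 584.8 to 1824.5 over the 6 HT29-derived arrays and NSDHL from 470.4 to 998.5, above both Colo357 arrays in each case. SQLE ranged from 1305.9 to 4468.8 and INSIG1 from 210.8 to 1330.6, and in both the 1-vector clone lay below untreated Colo357.

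FADS2 was higher in Colo357 (286 and 79.9 against 12.1 and 12.8; log2 difference 2.86, SE 0.42, adjusted p = 0.000853). It passed the filter on dim genes only through Colo357, so it had to differ. It read 4.6 to 9.9 in the 4 shRNA clones. The other fatty acid enzymes ranged from -0.77 (ACACA) to 0.20 (ELOVL6) and none passed. IDI1 (822.2 and 1602.6 against 559.5 and 453.4) was at -1.17 (SE 0.38) and missed the threshold with an adjusted p of 0.0534. It passed with an added constant of 32 (0.0304) and with its probe sets averaged (0.0441). Both of its probe sets are open to cross-hybridisation. LSS lost its call with the mean of its probe sets (-0.99, adjusted p = 0.0988), and SQLE (0.0845) and NSDHL (0.0507) lost theirs with all 8 arrays in the fit.

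Both Colo357 arrays lay below both HT29 arrays for 9 of the 26 genes and above them for 2, where 26.7% and 23.6% of all genes did. The 9 were PMVK, MVD, IDI1, SQLE, LSS, NSDHL, DHCR7, INSIG1 and ACLY. MSMO1 (736.3 and 689.3 in Colo357, 349.8 and 675 in HT29) and FADS2 were the 2 above. MSMO1's difference was 0.54 (SE 0.36), with an adjusted p of 0.33, and that of FDPS was 0.25 (SE 0.33), with an adjusted p of 0.661.

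**Figure D3:**
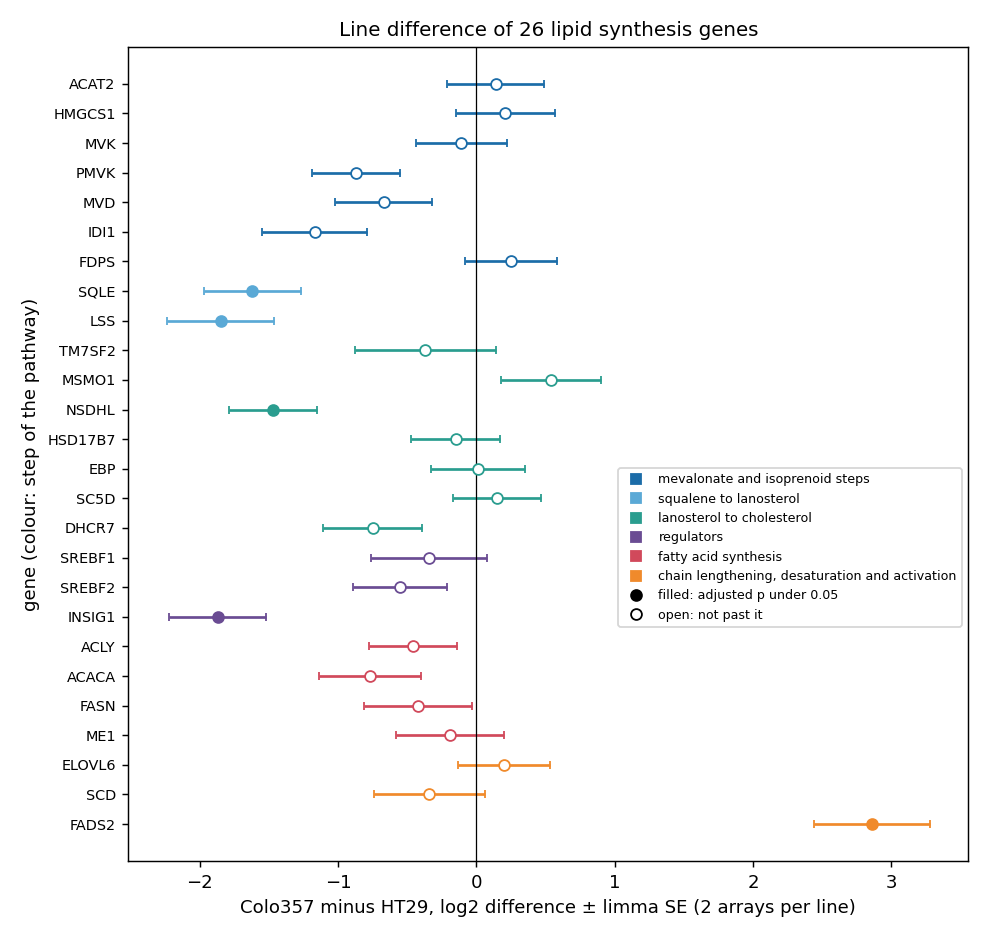
Log2 difference of Colo357 minus HT29 for the 26 genes, with limma's SE as bars, from 2 arrays per line (untreated and antibody-treated). Filled points mark the 5 genes past an adjusted p of 0.05: SQLE, LSS, NSDHL and INSIG1 to the left and FADS2 (2.86) to the right.

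The 3 CD24 shRNA clones were then set against 2 controls, the uncloned HT29 line and the clone with the GFP shRNA. No listed gene passed the adjusted limma test, and neither did any of the 6752 genes tested (0.0% called). At an unadjusted p under 0.05 there were 6 of the 25 listed genes and 1352 of all genes. Without the GFP clone 88 of all genes passed and without 2-vector clone 2 593 did. CD24 itself, at -4.12 (SE 0.57), had an adjusted p of 0.208. What the arrays show for the listed genes is therefore given as values: some sterol enzymes read higher in all 3 clones and others lower, and INSIG1, ME1 and ELOVL6 read lower.

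All 3 clones lay above both controls for 6 of the 25 genes and below both for 6, where 20.1% and 19.9% of all genes did. The 6 higher genes were PMVK, FDPS, HSD17B7, EBP, DHCR7 and ACLY, and the 6 lower were HMGCS1, IDI1, SC5D, INSIG1, ME1 and ELOVL6. HSD17B7 was barely so: it read 331.5 and 334.7 in the controls and 341, 485.9 and 379.5 in the clones. Without 2-vector clone 1, the array that stood apart, all 12 kept their side and SQLE joined the lower ones (21.7% and 21.8% of all genes).

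Among the higher genes, FDPS read 1343.9 in HT29 and 2259.6 in the GFP clone. The 1-vector clone gave 3542.7 and the 2-vector clones 5081.2 and 3334.3 (log2 difference 1.16, SE 0.41). EBP read 837.2 and 773.3 in the controls and 1484.6, 2058.3 and 1047.7 in the clones (0.87, SE 0.41). For EBP, 2-vector clone 2 lay closest to the controls. EBP's less bright probe sets disagreed here too, at 1.09 and -0.30, and the mean of its probe sets gave 0.55. PMVK read 628 and 799.5 in the controls and 1473.2, 1353.1 and 900.9 in the clones (0.77, SE 0.39). DHCR7, the last reductase of the pathway, read 1193.9 and 1432.7 in the controls and 1735.5, 2828.5 and 1649.9 in the clones (0.62, SE 0.40). FDPS was the only higher gene of the list at 2-fold, where 7.17% of all genes were. Without 2-vector clone 1 FDPS was at 0.98, PMVK at 0.69, EBP at 0.63 and DHCR7 at 0.37, so that none reached 2-fold. Without parental HT29 FDPS was at 0.79 and without the GFP clone at 1.54. With quantile normalization it was at 0.99, under 2-fold.

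Among the lower genes, SC5D, a sterol desaturase, read 255.6 in HT29 and 400.4 in the GFP clone. The 1-vector clone gave 57.2 and the 2-vector clones 75 and 217.7 (log2 difference -1.60, SE 0.57). ELOVL6 read 175.7 and 215.6 in the controls and 43.7, 42.8 and 110 in the clones (-1.55, SE 0.47). In both genes the 1-vector clone and 2-vector clone 1 were far below the controls and 2-vector clone 2 was between. INSIG1 read 626.3 and 1330.6 in the controls and 210.8, 346.5 and 571 in the clones (-1.37, SE 0.53). IDI1 read 822.2 and 990 in the controls and 201.9, 380.1 and 649.5 in the clones (-1.27, SE 0.51). ME1 read 1078.3 and 543.8 in the controls and 276, 379.3 and 469.2 in the clones (-1.04, SE 0.44). These 5 were lower at 2-fold, where 17.0% of all genes were. Without 2-vector clone 1 all 5 stayed lower by 2-fold: SC5D was at -1.42, INSIG1 at -1.37, ELOVL6 at -1.35, IDI1 at -1.29 and ME1 at -1.07. Leaving out other arrays brought 3 of them under 2-fold. ME1 was at -0.56 without parental HT29 and -0.85 without the 1-vector clone, INSIG1 at -0.83 without the GFP clone and IDI1 at -0.85 without the 1-vector clone. With quantile normalization ME1 was at -0.96, under 2-fold. ELOVL6 was then at -1.16, IDI1 at -1.24, SC5D at -1.27 and INSIG1 at -1.35. Of the probe sets of INSIG1, IDI1, SC5D and ELOVL6, every one was lower in the clones, but both of IDI1's are open to cross-hybridisation. HMGCS1 read 147.6 and 151.3 in the controls and 51.3, 82.5 and 129.3 in the clones (-0.79, SE 0.44; also -0.79 without 2-vector clone 1).

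The exact two-sided permutation test of 3 clones against 2 controls, which cannot go below p = 0.1 with 10 splits, gave p = 0.1 for FDPS and ME1. For IDI1, SC5D, INSIG1, ELOVL6, PMVK, EBP, DHCR7 and HMGCS1 it gave 0.2. The lowest limma adjusted p among the listed genes was 0.212, for ELOVL6. When 2-vector clone 2 was left out, ELOVL6 (-1.94, adjusted p = 0.0323) and SC5D (-2.13, adjusted p = 0.0344) passed.

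**Figure D4:**
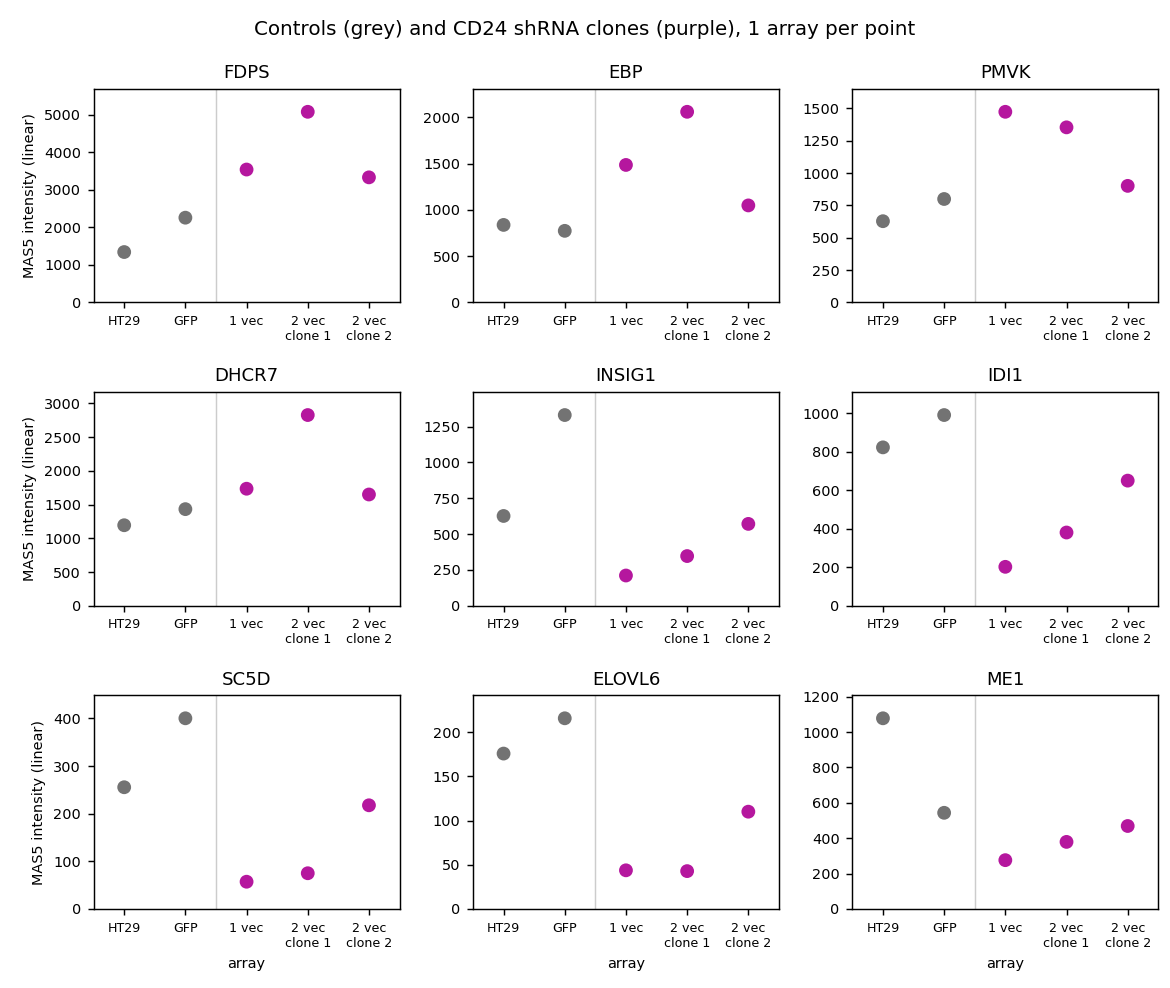
MAS5 intensity of 9 genes on the 2 control arrays (grey) and the 3 CD24 shRNA clones (purple), 1 point per array, on linear axes from 0. In FDPS, EBP, PMVK and DHCR7 the 3 clones lie above both controls, and in INSIG1, IDI1, SC5D, ELOVL6 and ME1 below both.

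The clones differed among themselves. CD24 read much the same in 2-vector clone 2 (595.5) as in the 1-vector clone (558). Of 25 genes, 2 were higher in 2-vector clone 2 than in parental HT29 by 2-fold or more and 1 lower, against 10.3% and 7.1% of 6707 genes. In 2-vector clone 1 the counts were 7 and 4, against 17.9% and 24.0% of 6771 genes. In the 1-vector clone they were 4 and 7, against 16.6% and 22.9% of 6744 genes. Set against the GFP clone, the counts changed. In 2-vector clone 2, 0 genes were higher and 1 lower, against 3.2% and 8.23% of 6740 genes. In 2-vector clone 1 there were 2 and 5 (12.7% and 25.8% of 6782 genes), and in the 1-vector clone 0 and 6 (7.54% and 23.4% of 6733 genes). SREBF1 read 716.4, 870.2 and 598.9 in the 3 clones. These values lie between parental HT29 at 320.2 and the GFP clone at 1074.9, so its difference depends on the control. FASN (1271.5, 2010.3 and 1145.8, against 1233.7 and 1475.9) and SCD (3151.6, 3744.7 and 4373, against 3267.5 and 6016.6) overlapped the controls.

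The GFP shRNA clone carries no CD24 shRNA and was compared with parental HT29, 1 array against 1. 4 of 25 genes were higher by 2-fold or more and 0 lower, where 14.5% and 7.11% of all 6696 genes were. TM7SF2 read 1005.3 against 174.6 (log2 difference 2.46) and SREBF1 1074.9 against 320.2 (1.72). MSMO1 read 1025.6 against 349.8 (1.53) and INSIG1 1330.6 against 626.3 (1.08). Of the 4, 2 are regulators, and the third regulator, SREBF2, was at 0.30 (412.5 against 332.4). The lowest were ME1 (543.8 against 1078.3, -0.97), SQLE (2156.7 against 3192.8, -0.56) and NSDHL (470.4 against 662.7, -0.49). The median of the 25 was 0.28, and over all genes it was 0.09.

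Some differences from parental HT29 were shared by all 4 clones, whatever the shRNA. All 4 differences subtract the same single parental array, so they are not independent of each other. TM7SF2 read 174.6 in parental HT29 and 1005.3, 1317.6, 690.1 and 631.7 in the GFP, 1-vector and 2-vector clones. Its antibody difference in HT29 (1.98, with 715.9 after antibody) subtracts that parental array too. TM7SF2 was the only listed gene at 2-fold or more from parental HT29 in all 4 clones, where 6.53% of all genes were higher to that degree and 1.93% lower. Its difference between CD24 clones and controls, 0.96 (SE 0.71), was -0.27 with the GFP clone as the only control and 2.19 with parental HT29 as the only control. Without 2-vector clone 1 it was 1.09. In all, 9 genes were higher in all 4 clones (MVK, PMVK, FDPS, LSS, TM7SF2, HSD17B7, DHCR7, SREBF1 and SREBF2), where 30.3% of all genes were. 2 were lower in all 4 (SQLE and ME1), where 22.8% were. FDPS, PMVK, HSD17B7, DHCR7 and ME1 were also outside both controls. In each of them the GFP clone thus lay between parental HT29 and the 3 CD24 shRNA clones. For HSD17B7 the GFP clone was above parental HT29 by a log2 difference of only 0.01.

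The 2 clones with 2 CD24 vectors were compared with the clone with 1. IDI1, SC5D and INSIG1 read higher with 2 vectors by at least 2-fold, and in each the 1-vector clone lay below the other 2. They are 3 of 25 genes, where 5.97% of all 6780 genes did. 0 were lower, where 3.41% were. IDI1 read 380.1 and 649.5 against 201.9 (log2 difference 1.26), SC5D 75 and 217.7 against 57.2 (1.05), and INSIG1 346.5 and 571 against 210.8 (1.04). In all 3 genes the 2-vector clones lay nearer to the controls than the 1-vector clone. The lowest were TM7SF2 (690.1 and 631.7 against 1317.6, -0.99), PMVK (1353.1 and 900.9 against 1473.2, -0.41) and MVD (105 and 80.7 against 110.6, -0.24). With 2-vector clone 1 alone none of the 3 reached 2-fold, and the 1 gene that did was LSS. With 2-vector clone 2 alone 7 genes did, of which SC5D, INSIG1, IDI1, HMGCS1, MSMO1 and ELOVL6 are 6 and TM7SF2, lower, is the other. With 32 added, with quantile normalization and with the mean of probe sets, IDI1 alone was left. Both probe sets of IDI1 are open to cross-hybridisation, and without such probe sets SC5D and INSIG1 were left.

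Other genes around these pathways were read from 6 lists. Among all genes compared, 3557 of 6685 were lower after antibody in HT29 (median -0.05) and 3522 of 6836 in Colo357 (median -0.04). In the branch that uses isoprenoids, 7 of 7 genes were lower in HT29 (median -0.37). ICMT (-0.01), PDSS1 (-0.03) and PGGT1B (-0.12) were so only slightly. The lowest of the branch was GGPS1, which makes the geranylgeranyl donor, at 281.2 untreated and 129.2 after antibody (-1.06). In Colo357 5 of 7 were lower (median -0.50), and GGPS1 read 277.7 and 87.2 (-1.57). By limma over both lines GGPS1 was at -1.32 (SE 0.33), with an adjusted p of 0.0583. No gene of the 6 lists passed that test.

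Genes of sterol sensing and SREBP processing were lower in 5 of 5 in HT29 (median -0.47) and 4 of 7 in Colo357 (median -0.48). TMEM97, a sterol-responsive membrane protein, read 1337.1 and 935.6 in HT29 (-0.51) and 1335 and 539.6 in Colo357 (-1.29). INSIG2, the relative of INSIG1, differed little after antibody (-0.23 and 0.28). In the clones INSIG2 read 25.8, 27.7 and 102.8 against 188.8 and 213.9 in the controls (-1.98, SE 0.55, unadjusted p = 0.00695, adjusted p = 0.208). The clones' mean was at the filter level of 5.74, and INSIG2 passed through the controls. Among the HT29-derived arrays both INSIG genes read lowest in the 1-vector clone.

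LXR and efflux genes had medians of 0.14 over 3 genes in HT29 and 0.35 over 5 in Colo357. The 3 in HT29 were NR1H3, MYLIP and LPCAT3, and neither sterol exporter of the list, ABCA1 or ABCG1, passed the filter there. Triglyceride synthesis genes were higher in 3 of 3 in HT29 (median 0.47) and 2 of 3 in Colo357 (0.36). Fatty acid oxidation genes had medians of 0.10 over 11 genes in HT29 and -0.21 in Colo357. Their lowest in Colo357 were HADH (323 and 81.9, -1.86), which acts within the oxidation cycle, and CPT1A (660.8 and 213.3, -1.59), which admits fatty acids to mitochondria. Other fatty acid synthesis and NADPH genes had medians of 0.39 over 8 in HT29 and -0.52 over 8 in Colo357, with none at 2-fold in either line.

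Between the lines, 10 of the 39 genes of these lists that were tested passed the limma test, where 19.4% of all genes did. ELOVL5, which lengthens the polyunsaturated chains that FADS2 desaturates, read 1392.1 and 1068.7 in Colo357 and 2.6 and 7.1 in HT29 (log2 difference 6.39, SE 0.35). It too passed the filter only through Colo357. ACSL5, which activates fatty acids, read 68.6 and 72.7 in Colo357 and 704 and 959.8 in HT29 (-3.37, SE 0.33, adjusted p = 4.1e-05). The exporter ABCG1, whose mean in HT29 lay below the filter, was higher in Colo357 (213.9 and 450.3 against 31.9 and 48.9; 2.69, SE 0.33, adjusted p = 0.000239). VLDLR, higher in Colo357, also passed the filter only through that line. ELOVL5, ABCG1 and VLDLR therefore had to differ. The remaining 6 were ACADM, higher in Colo357, and INSIG2, NR1H3, SLC25A1, HADH and ACAA2, lower.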

How the data were processed

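Each of 8 cell samples was read on 1 Affymetrix human array. The deposited intensity values are linear signals made by MAS5, as the submitters' processing notes say, in a version not given in those notes. Their mean after trimming was 250.1 on every array, so they were used as deposited. Of 22277 probe sets, 62 are controls, 19064 carry 1 symbol in the platform annotation, 1043 several and 2108 none. Symbols of 19052 were updated through the Entrez ID in RefSeq's GRCh38.p14 gene table.

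Values were converted to log2(intensity + 10). Each gene took its brightest single-symbol probe set. A comparison used genes whose mean log2 value over its own arrays exceeded the median over those arrays of the probe sets that are no controls. 3 readings of this filter were run. This one was kept after their counts of calls had been seen, because it follows an earlier description of the processing. Tests were limma (version 3.58.1, R 4.3.3; lmFit and eBayes) with Benjamini-Hochberg adjustment over all genes tested, two-sided, called at an adjusted p under 0.05. The antibody fit used 4 arrays with the line as a block, which leaves 1 residual degree of freedom, and limma's prior brings the total behind its SE to 10.2. The clone fit used 5 arrays and has 3 residual degrees of freedom. Exact permutation tests used scipy 1.17.1. Comparisons of 1 array with 1 array have no test, and genes at 2-fold were counted. The fits were tested on simulated data. With so few arrays, precision is limited by their number.

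Genes named with values were CD24, those past a test, those at 2-fold after antibody in both lines, and the 3 largest differences per direction in each comparison; the others illustrate a step. The list of 30 genes, the 6 further lists and the rules were chosen with earlier results of these data known. Alternatives were another added constant, quantile normalization, no filter, 2 other readings of the filter, the mean of a gene's probe sets, probe sets ending in _x_at left out, all 8 arrays in 1 fit, and each clone or control left out. No protein sequences were used here.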

Additional observations from a re-analysis of the deposited data

Results flagged for a closer look

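TM7SF2 and FADS2 moved in opposite directions after antibody in the 2 lines, or in 1 line only. TM7SF2 had a log2 difference of 1.98 in HT29 and -0.52 in Colo357. FADS2 had 0.04 in HT29, where it read 12.1 and 12.8, and -1.72 in Colo357. With 1 array a group in each line, the difference between the lines was not tested.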

How the results depend on the processing

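Differences of the named genes that had a limma test kept direction and side of the threshold in 208 recalculations, lost the threshold in 8, gained it in 5 and reversed in 1. That 1 was TM7SF2 in the clones, at 0.96, which ranged from -0.27 without parental HT29 to 2.19 without the GFP clone. The counts include recalculations that could not move a difference, such as another filter, or averaging for a gene with 1 probe set. In the clones no named gene was past the threshold in the reported fit, so none could lose it there. Differences without a test moved by less than 0.33, the median SE of the antibody fit, in 110 recalculations and by more in 9; arrays without replicates have no spread of their own. For the antibody over both lines, the 1 listed gene called became 2 with 32 added (ACACA joined, -1.31, adjusted p = 0.0464) and 0 with quantile normalization, the mean of probe sets, no filter, the filter on linear means and all 8 arrays in 1 fit. The calls among all genes were 241 as reported, 157 without _x_at probe sets, 68 with the mean of probe sets, 25 with the linear filter, 0 with quantile normalization, no filter or 8 arrays, and 340 with 32 added. The filter on linear means and the filter against the median over all 8 arrays were added after seeing the data; the second left 1 gene called. In the clones the 0 genes called ran from 0 to 2 when each array was left out, with 2 found without 2-vector clone 2. Of all genes, 0 were called there in the reported fit, 593 without 2-vector clone 2, 88 without the GFP clone, 2 without the 1-vector clone and 3 with all 8 arrays. Between lines the 5 called genes became 3 with all 8 arrays, and the calls among all genes went from 1319 to 508. For 2 vectors against 1, the 3 genes at 2-fold became 1 with 32 added, quantile normalization and the mean of probe sets, and ran from 1 to 7 when each 2-vector clone was left out. For the antibody in Colo357 the 8 genes at 2-fold became 4 with the mean of probe sets. Quantile normalization moved the median of all genes in the clone comparison from 0.04 to 0.18. The antibody fit already pairs the treated and untreated arrays of each line through its line block. No paired analysis was possible in the clone comparison because the labels give no replicate numbers shared by clones and controls.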
